A study of Mus musculus with 4 samples.

Results

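The genes described here are the 10 that encode the D-type cyclins (Ccnd1, Ccnd2, Ccnd3), their kinase partners (Cdk4, Cdk6) and the inhibitors of these kinases (Cdkn1a, Cdkn1b, Cdkn2a, Cdkn2b, Cdkn2c). They were chosen by symbol, and all 10 were among the 25793 genes listed in each of the 4 mouse RNA sequencing count tables. Of the libraries, 2 were labelled liver tumours (tumours 1 and 2) of beta-2SP+/-; SMAD3+/- mice, which carry 1 working copy each of beta-2 spectrin (Spnb2 in the tables) and of Smad3, which relays TGF-beta signals to the nucleus. The other tables were labelled normal liver, 1 from a mouse of that double heterozygous genotype and 1 from a wild type mouse. Short descriptions from the submitters differ from these labels, naming Elf and Tcell for tumour 1, Smad and Tcell for tumour 2 and hepatocytes for normal liver, and genotype and disease status were used for grouping. No treatment is given, age is not given in the sources used here, and no label says whether the tumours came from separate animals, so p-values measure only the spread between these samples.

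D cyclins are made in response to growth signals and switch on CDK4 and CDK6, which phosphorylate the RB protein, release E2F transcription factors and let a cell pass from G1 into S phase. Inhibitors of the INK4 family (p16 from Cdkn2a, p15 from Cdkn2b, p18 from Cdkn2c) bind CDK4 and CDK6 directly. Those of the CIP/KIP family (p21 from Cdkn1a, p27 from Cdkn1b) bind cyclin-CDK complexes, above all those of CDK2. In adult liver most hepatocytes rest outside the cell cycle, cyclin D1 is induced when they re-enter it during regeneration, and TGF-beta is a classical inducer of Cdkn2b and Cdkn1a in epithelial cells.

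Gene counts came to 11049931 and 13295216 in tumours 1 and 2, against 15950426 in the double heterozygous and 18448621 in the wild type normal table. The normal tables held more equal counts than separate libraries would: of 2483 genes with a mean of 1 to 5 counts, 56.9% had the same count in both, against 13.5% of such genes between the tumours. Since they thus shared counts at this level, their rounded mean was counted as 1 sample. Some genes with more counts still differed between these tables. Mcm7 had 46 counts in the double heterozygous and 203 in the wild type table, and Tfdp1 had 65 and 231. The targeted genes did not read low in the tumours: Spnb2 stood at 16607 and 19149 counts there, against 3364 (double heterozygous) and 3549 (wild type) in normal liver, and Smad3 at 4521 and 2174, against 426 and 460. Transcripts that define the labelled tissue were scarce in the tumours. The summed level of 8 hepatocyte markers was 12.7 and 49.3 CPM (counts scaled to library size, with edgeR's TMM factors between libraries) in tumours 1 and 2, against 206785 CPM in normal liver, and all 8 were lower in both tumours. In the same order 8 bile duct markers summed to 2879 and 2264 CPM against 54.1 CPM, with 6 of the 8 higher in both tumours. Spp1 (1526 and 1585 CPM) and Krt19 (649 and 309 CPM) led the tumour sums. Epcam (24.0 and 0.215 CPM against 5.15 CPM) and Cftr (31.4 and 0.376 CPM against 1.75 CPM) were higher in tumour 1 but lower in tumour 2. The 8 endothelial markers summed to 0.674 and 1.56 CPM against 269 CPM, and all 8 were lower in both tumours. The 8 listed Kupffer cell and macrophage markers summed to 19.5 and 4.78 CPM against 141 CPM, with 6 of the 8 lower in both tumours and Clec4f, Vsig4 and Timd4 at 0 counts there. The 9 stellate cell and fibroblast markers summed to 5.52 CPM in tumour 1, 813 CPM in tumour 2 and 225 CPM in normal liver. Of these, 3 were lower and 2 higher in both tumours, with Lrat at 0 counts there. The sums rest on different genes: Reln (116 CPM) and Dcn (64.9 CPM) led in normal liver, Col1a2 (281 CPM) and Col1a1 (202 CPM) in tumour 2. Of the T cell markers, Cd3e, Cd3d, Cd3g, Cd4, Cd8a, Cd8b1 and Cd2 were at 0 counts in both tumours, and 8 listed markers summed to 0.606 and 0.590 CPM there against 6.25 CPM. B cell markers summed to 0 and 0.0537 CPM in the tumours against 5.92 CPM, and neutrophil markers to 1.62 and 1.77 CPM against 1.32 CPM. The part of these cell types in the results below was not tested, and in bulk RNA fewer cells of a type and less RNA per cell cannot be told apart.

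The main comparison set the tumours against normal liver. Ccnd1 and Ccnd2 rose strongly in both tumours, while Ccnd3 was at 1.18 and 1.72 times its normal level and did not pass the test. Higher values in both tumours than in normal liver were found for all 10 genes, inhibitors included, which held for 43.1% of all 14468 genes tested. All 10 passed the filter on low counts. By edgeR's quasi-likelihood test with Benjamini-Hochberg adjustment over all genes at 0.05, 2 of the 10 were called higher and 0 lower. Cdkn2a and Cdkn2b, with 4 or fewer counts in normal liver, passed that filter through the tumours alone and could only read higher. Among all genes tested 2.23% were called higher and 5.19% lower, 7.42% in either direction. DESeq2 called 6 of the 10 higher and 0 lower, against 8.68% and 8.7% of the genes it tested. An unadjusted edgeR p under 0.05 also gave 0 lower, against 15.5% of all genes. That threshold was passed in the higher direction by 6 of the 10 (Ccnd1, Ccnd2, Cdk4, Cdkn1a, Cdkn2a and Cdkn2b), against 12.5% of all genes, and the same 6 were over 4-fold above normal liver in both tumours, against 15.9% of all genes. The median log2 fold change was 3.41 over the 10 genes and 0.19 over all genes. Setting Cdkn2a, whose normal mean rounds to 0, against a floor of 3 counts cannot move this median, since it stays above the middle genes. These shares describe genes that were chosen with earlier results of these data known.

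**Figure D1:**
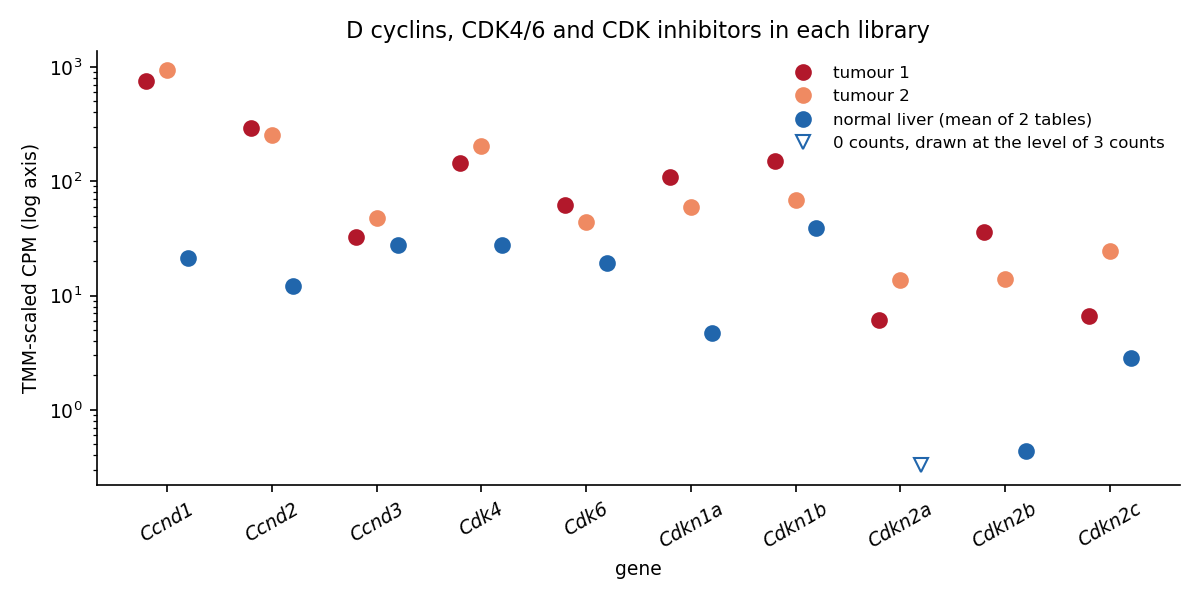
TMM-scaled CPM on a log axis for each of the 10 genes, with 1 point each for tumour 1, tumour 2 and normal liver (the rounded mean of both normal tables). Both tumour points lie above the normal point for every gene, by the widest margins for Ccnd1, Ccnd2, Cdkn1a, Cdkn2a and Cdkn2b, and the open triangle marks 0 counts drawn at the level of 3 counts (0.329 CPM).

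Ccnd1, which encodes cyclin D1, had 11287 and 17364 counts in tumours 1 and 2, against 193 counts in each normal table. On the scaled level this is 760 and 932 CPM, with a mean of 846 ± 121 CPM (SD, n = 2); normal liver stood at 21.2 CPM. The tumours were close to each other and far above both normal tables. The log2 fold change was 5.32 (SE 0.88), or 40.0-fold, with an edgeR adjusted p of 0.0456. Each alternative analysis kept the call, with an adjusted p of 1.41e-10 to 0.0487 over 8 of them. In the mouse annotation used here (GENCODE M21, build GRCm38) Ccnd1 overlaps LTO1 on the opposite strand, and 22.3% of the 31-base words of Ccnd1 transcripts also occur there. Under its older symbol Oraov1 that gene had 224 and 151 counts in the tumours, far below Ccnd1 there. In normal liver it had 125 (double heterozygous) and 141 (wild type) counts, much nearer to the 193 of Ccnd1. Where strand was not used in counting, reads of the shared stretch cannot be assigned, so the normal level of Ccnd1 is uncertain.

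Ccnd2, the gene of cyclin D2, had 4325 and 4724 counts in the tumours, against 106 (double heterozygous) and 113 (wild type) in normal liver. Its mean level was 272 ± 26.7 CPM in the tumours (SD, n = 2) and 12.1 CPM in normal liver. The tumours differed little and did not approach the normal tables. The fold change was 22.6 (log2 4.50, SE 0.71, edgeR adjusted p = 0.0424), and over the 8 alternatives the adjusted p ran from 2.22e-07 to 0.0461.

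Ccnd3, which encodes cyclin D3, had 484 and 887 counts in the tumours, against 217 (double heterozygous) and 287 (wild type) in normal liver. Its scaled level was 32.6 CPM in tumour 1, 47.6 CPM in tumour 2 and 27.6 CPM in normal liver. Tumour 1 lay near normal liver and tumour 2 somewhat above it. The log2 fold change of 0.54 (SE 0.62) did not pass the test (edgeR adjusted p = 0.602), nor did it under any of the 8 alternatives. Bysl overlaps Ccnd3 on the opposite strand over 361 exon bases of this annotation and had 408 and 875 counts in the tumours, against 169 and 192 in normal liver.

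The make-up of the D cyclin transcripts was compared as reads per kilobase of merged exons, and Ccnd1 held a larger share in both tumours. Ccnd1 gave 82.3% and 85.9% of D cyclin reads per kilobase in tumours 1 and 2, against 53.2% (double heterozygous) and 47.8% (wild type) in the normal tables. Ccnd3 gave 1.89% and 2.36% in the tumours, against 32.1% and 38.2% in the normal tables. The share of Ccnd2 was 15.8% and 11.7% in the tumours, against 14.6% and 14.0%. Together the D cyclins reached 196 and 230 CPM per kilobase in the tumours and 8.92 CPM per kilobase in normal liver. With the longest transcript as length, Ccnd1 still led in both tumours (78.9% and 82.6%), while in normal liver Ccnd3 (48.6%) stood above Ccnd1 (38.4%). Which D cyclin leads in normal liver thus depends on the transcript length assumed, and the lead of Ccnd1 in the tumours does not. With 1 normal sample these shares carry no test.

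**Figure D2:**
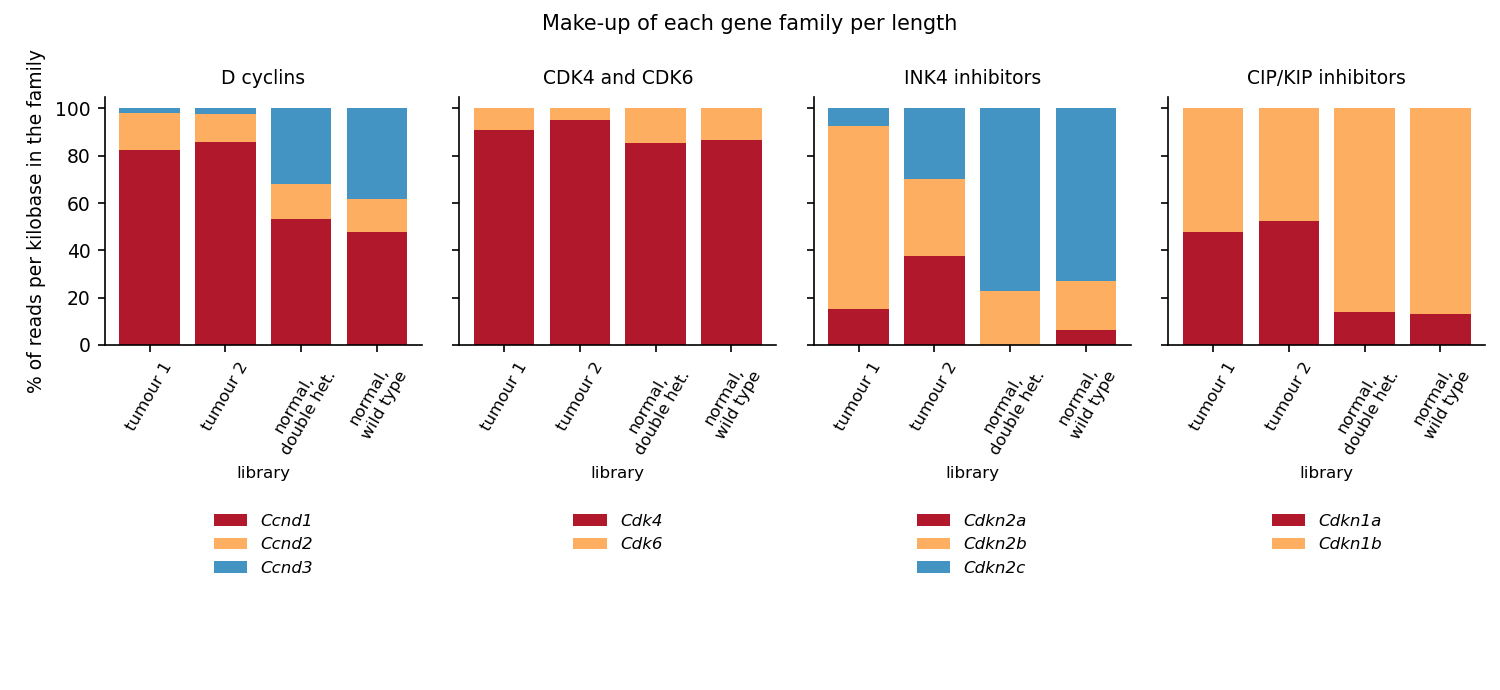
Percent of reads per kilobase of merged exons within each gene family, as bars for tumour 1, tumour 2 and the normal tables labelled double heterozygous and wild type. Ccnd1 fills 82.3% and 85.9% of the D cyclin bar in the tumours, and the INK4 bar is mainly Cdkn2b in tumour 1, a mixture in tumour 2 and mainly Cdkn2c in the normal tables.

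The kinase genes were higher in both tumours by smaller factors. Cdk4 had 2152 and 3791 counts in the tumours, against 226 (double heterozygous) and 276 (wild type) in normal liver. Its level was 174 ± 41.4 CPM in the tumours (SD, n = 2) and 27.5 CPM in normal liver. Both tumours lay over 5 times above normal liver, but the log2 fold change of 2.66 (SE 0.65) missed the threshold (edgeR adjusted p = 0.0910). Of the 8 alternatives 3 called it, with adjusted p of 0.00673 to 0.0951 over all 8. Cdk4 overlaps Tspan31 on the opposite strand over 641 exon bases, and Tspan31 had 1509 and 1304 counts in the tumours, against 4222 and 4411 in normal liver. Where strand was not used in counting, reads of the shared stretch cannot be assigned to either gene, so the normal level of Cdk4 is uncertain.

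The start region of Cdk4 is shown because it holds 4 copies of the E-box CACGTG, the sequence bound by MYC with its partner MAX, and because Cdk4 is a textbook MYC target. The window, from RefSeq, runs from 250 bases before to 50 bases after the transcription start (chr10:127063285-127063584, plus strand, GRCm38.p6). Capitals mark CACGTG, which reads the same on both strands.
Cdk4: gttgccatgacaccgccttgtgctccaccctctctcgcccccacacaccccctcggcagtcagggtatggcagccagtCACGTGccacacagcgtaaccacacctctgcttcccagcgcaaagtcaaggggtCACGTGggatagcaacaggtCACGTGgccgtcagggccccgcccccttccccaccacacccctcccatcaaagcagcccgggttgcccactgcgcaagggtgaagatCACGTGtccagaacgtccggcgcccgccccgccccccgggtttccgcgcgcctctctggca
Of 32851 such windows of mouse genes, 7.15% held at least 1 CACGTG and 8 held 4 or more. Among the 12 windows found for 8 of the 10 genes, 3 held the motif. Ccnd1 and Ccnd2 had no entry in the table. The level of Myc was 38.3 CPM in tumour 1, 69.4 CPM in tumour 2 and 48.9 CPM in normal liver (log2 fold change 0.14, SE 0.65, edgeR adjusted p = 0.905). A match is a stretch of letters and not a site shown to be bound.

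Cdk6 had 915 and 813 counts in the tumours, against 164 (double heterozygous) and 186 (wild type) in normal liver. Its level was 52.6 ± 12.7 CPM in the tumours (SD, n = 2) and 19.2 CPM in normal liver. Tumour 1 was the highest and both tumours lay above normal liver. The log2 fold change was 1.46 (SE 0.63, edgeR adjusted p = 0.223), and 1 of 8 alternatives called it, that with both normal tables as separate libraries (range 0.0219 to 0.315). Per kilobase, Cdk4 made up 91.0% and 95.3% of the reads of this pair in the tumours, against 85.6% and 86.5% in the normal tables. Cdk4 was therefore the more abundant kinase transcript per length in all 4 tables.

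**Figure D3:**
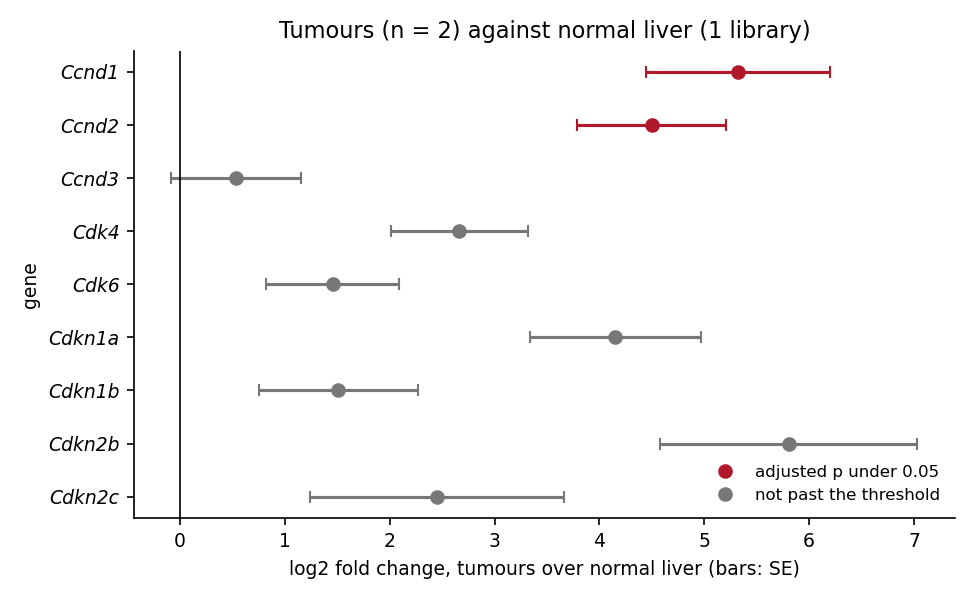
Log2 fold change of the tumours (n = 2) over normal liver (1 library) with its SE, from edgeR. Ccnd1 (5.32) and Ccnd2 (4.50) passed the adjusted threshold and are drawn in red, Ccnd3 (0.54) lies nearest 0, and Cdkn2a is not drawn because its fitted value rests on a normal mean that rounds to 0.

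Both CIP/KIP inhibitor genes were above normal liver in both tumours, and neither passed the test. Cdkn1a, which encodes the p53 target p21, had 1608 and 1112 counts in the tumours, against 43 counts in each normal table. Its level was 84.0 ± 34.4 CPM in the tumours (SD, n = 2) and 4.71 CPM in normal liver, 23.0 times higher in tumour 1 and 12.7 times higher in tumour 2. The log2 fold change of 4.15 (SE 0.81) fell just short of the threshold (edgeR adjusted p = 0.0603), and 4 of 8 alternatives called it (range 8.00e-05 to 0.0668). Cdkn1b, which encodes p27, had 2247 and 1283 counts in the tumours, against 344 (double heterozygous) and 362 (wild type) in normal liver. Its level was 151 CPM in tumour 1, 68.9 CPM in tumour 2 and 38.7 CPM in normal liver. The log2 fold change was 1.51 (SE 0.76, edgeR adjusted p = 0.271), and none of the 8 alternatives called it. Per kilobase the pair was nearly even in the tumours, where Cdkn1a gave 47.8% and 52.6%, against 13.8% and 13.2% in the normal tables. With the longest transcript as length Cdkn1a gave 61.0% and 65.5% in the tumours and 21.0% in normal liver.

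Both annotated start regions of Cdkn1a are shown because the gene is controlled by p53 and its level stood so far above normal liver. The upstream window lies at chr17:29090729-29091028, plus strand and the downstream one at chr17:29093519-29093818, plus strand (RefSeq, GRCm38.p6). Capitals mark matches to the p53 motif in the first and the GC box GGGCGG, on either strand, in the second.
Cdkn1a upstream start: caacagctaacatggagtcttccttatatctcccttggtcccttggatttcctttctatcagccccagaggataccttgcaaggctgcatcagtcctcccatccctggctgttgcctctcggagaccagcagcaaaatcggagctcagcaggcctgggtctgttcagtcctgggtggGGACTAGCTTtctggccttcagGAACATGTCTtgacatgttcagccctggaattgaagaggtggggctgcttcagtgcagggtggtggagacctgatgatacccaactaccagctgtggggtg
Cdkn1a downstream start: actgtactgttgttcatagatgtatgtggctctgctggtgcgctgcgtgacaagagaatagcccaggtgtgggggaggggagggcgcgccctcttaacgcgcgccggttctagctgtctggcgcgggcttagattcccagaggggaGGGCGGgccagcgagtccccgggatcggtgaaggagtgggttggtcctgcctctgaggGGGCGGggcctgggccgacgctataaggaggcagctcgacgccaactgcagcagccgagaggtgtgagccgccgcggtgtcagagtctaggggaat
The upstream window held 2 matches to the p53 motif, a motif of 10 bases of which a full site holds a pair, found on either strand in 8.36% of all windows, and the downstream window held none. The 2 matches do not adjoin, and whether they belong to 1 full site was not tested. The GC box, the short sequence bound by SP1, occurred in 35.7% of all windows and 2 times in the downstream one. Trp53, which encodes p53, reached 37.2 CPM in tumour 1 and 64.0 CPM in tumour 2, with 13.6 CPM in normal liver (log2 fold change 1.90, SE 0.71, edgeR adjusted p = 0.181).

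The INK4 genes were nearly silent or low in normal liver and detected in both tumours. Cdkn2b, which encodes p15, had 536 and 259 counts in the tumours, against 4 counts in each normal table. Tumour 1 stood at 36.1 CPM, tumour 2 at 13.9 CPM and normal liver at 0.438 CPM. Set against the table labelled wild type, the ratio was 92.8 for tumour 1 (95% counting interval 36.0 to 342) and 35.7 for tumour 2 (13.8 to 132). The fitted log2 fold change was 5.81 (SE 1.23, edgeR adjusted p = 0.0707), and 4 of 8 alternatives called it (range 0.000123 to 0.0763). The tumours differed from each other by less than either differed from normal liver.

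Cdkn2a, whose alternative first exons give p16 and p19ARF, had 90 and 254 counts in the tumours, against 0 (double heterozygous) and 1 (wild type) in normal liver. Against the table with 0 counts, set to a floor of 3 counts, tumour 1 was at least 17.0-fold and tumour 2 at least 38.1-fold higher. Against the table with 1 count the ratios were 62.3 (95% counting interval 10.9 to 2489) and 140 (24.9 to 5554). Without molecular identifiers on the reads, all such intervals and floors describe counting error alone. The gene did not pass the test (edgeR adjusted p = 0.0676), and 3 of 8 alternatives called it (range 0.00245 to 0.0830). The counts are per symbol, so p16 and p19ARF transcripts were not separated. Since p19ARF is not an INK4 protein, the INK4 shares and sums given here may include reads that do not encode an INK4 inhibitor.

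Cdkn2c, which encodes p18, had 98 and 458 counts in the tumours, against 26 (double heterozygous) and 27 (wild type) in normal liver. Tumour 2 stood at 24.6 CPM, well above tumour 1 at 6.60 CPM and normal liver at 2.85 CPM. The log2 fold change was 2.45 (SE 1.21, edgeR adjusted p = 0.267), and none of the 8 alternatives called it. Per kilobase, the leading INK4 transcript was Cdkn2b in tumour 1 (77.3%) and Cdkn2c in the normal tables (77.1% in that labelled double heterozygous, 72.9% in that labelled wild type). In tumour 2 the family was divided among Cdkn2a (37.8%), Cdkn2b (32.5%) and Cdkn2c (29.7%). The normal shares rest on 30 and 32 counts. Summed per kilobase, the INK4 genes reached 33.6 and 30.8 CPM in the tumours against 1.38 CPM in normal liver, while the CIP/KIP genes reached 63.7 and 31.9 CPM against 9.83 CPM.

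Cdkn2a and Cdkn2b lie side by side on chromosome 4, and their start regions are shown because both genes stood far above normal liver in both tumours. The RefSeq starts in GRCm38.p6 put Cdkn2b 16.4 kb from the first Cdkn2a start, that of p19ARF, and 28.8 kb from the second, that of p16. The windows are at chr4:89310983-89311282, minus strand for Cdkn2b, chr4:89294570-89294869, minus strand for the first Cdkn2a start and chr4:89282143-89282442, minus strand for the second. Capitals mark the GC box GGGCGG on either strand.
Cdkn2b: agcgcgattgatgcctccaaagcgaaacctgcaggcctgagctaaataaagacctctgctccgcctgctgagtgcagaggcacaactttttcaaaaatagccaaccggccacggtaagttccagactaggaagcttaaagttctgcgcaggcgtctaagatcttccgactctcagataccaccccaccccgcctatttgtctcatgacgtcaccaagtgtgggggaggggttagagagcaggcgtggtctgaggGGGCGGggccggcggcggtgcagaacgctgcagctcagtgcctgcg
Cdkn2a first start: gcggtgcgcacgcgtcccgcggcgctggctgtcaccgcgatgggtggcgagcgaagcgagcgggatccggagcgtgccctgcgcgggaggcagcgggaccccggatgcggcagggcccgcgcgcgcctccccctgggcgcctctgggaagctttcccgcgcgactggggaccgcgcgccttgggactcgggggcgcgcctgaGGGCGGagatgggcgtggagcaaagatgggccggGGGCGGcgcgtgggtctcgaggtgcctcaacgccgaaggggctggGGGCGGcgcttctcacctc
Cdkn2a second start: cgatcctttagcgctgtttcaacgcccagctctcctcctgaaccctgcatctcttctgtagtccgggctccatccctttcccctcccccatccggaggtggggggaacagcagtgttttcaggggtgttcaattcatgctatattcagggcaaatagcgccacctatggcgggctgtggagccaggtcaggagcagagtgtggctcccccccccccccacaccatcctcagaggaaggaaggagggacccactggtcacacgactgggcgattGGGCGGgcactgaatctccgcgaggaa
The windows of Cdkn2b and of the second Cdkn2a start held 1 GC box each, and that of the first Cdkn2a start held 3. In the Cdkn2b window the SMAD element GTCTG, searched on both strands, was found 2 times, and the element occurred in 49.6% of all windows. It was not found in either Cdkn2a window. The CRE core TGACGTCA, bound by CREB and ATF factors, was found once in the Cdkn2b window and in 1.79% of all windows.

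Set side by side per length, the order of the 10 genes also differed between the tissues. In the tumours Ccnd1 came first, at 161 and 198 CPM per kilobase, and Cdk4 second, at 44.6 and 62.6, and neither overlapped its neighbours in this order. Ccnd2 (30.97 and 26.95), Cdkn1b (33.3 and 15.1), Cdkn1a (30.5 and 16.8) and Cdkn2b (25.98 and 10.001) followed by their mean, and then Cdkn2a (5.17 and 11.6), Cdkn2c (2.46 and 9.15), Ccnd3 (3.72 and 5.43) and Cdk6 (4.41 and 3.12). The ranges of all neighbours among these 8 overlapped, and in tumour 2 Cdkn2a stood above Cdkn2b. In normal liver Cdkn1b (8.50 CPM per kilobase) and Cdk4 (8.47) stood level at the top, followed by Ccnd1 (4.49) and Ccnd3 (3.15). Cdk6 (1.37), Cdkn1a (1.33), Ccnd2 (1.28) and Cdkn2c (1.06) were next, and Cdkn2b (0.315) and Cdkn2a (0) were lowest. With the longest transcript as length, which was applied to this order after the data were seen, Ccnd1 (203 and 249) and Cdk4 (70.6 and 99.1) still came first and second in the tumours. In normal liver that length put Cdk4 (13.4 CPM per kilobase) above Cdkn1b (8.50) and Ccnd3 (7.16) above Ccnd1 (5.66), so the upper normal order depends on the length used. With 1 normal sample, its spread is unknown.

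The tumours were also set against each other, as 1 library against 1 and so without a test. The D cyclin and kinase genes were close: tumour 1 over tumour 2 was 0.816 for Ccnd1 (95% counting interval 0.797 to 0.836), 1.15 for Ccnd2 (1.10 to 1.20), 0.685 for Ccnd3 (0.612 to 0.766), 0.713 for Cdk4 (0.675 to 0.751) and 1.41 for Cdk6 (1.28 to 1.55). The inhibitors were further apart and in both directions. Cdkn1a (1.82, 1.68 to 1.96), Cdkn1b (2.20, 2.05 to 2.36) and Cdkn2b (2.60, 2.24 to 3.02) were higher in tumour 1. Cdkn2a (0.445, 0.346 to 0.568) and Cdkn2c (0.269, 0.214 to 0.335) were lower there. In all, 4 of the 10 genes lay over 2-fold apart, and all 4 were inhibitors. That count is near the share over all genes tested, of which 33.2% lay over 2-fold apart. The median absolute log2 ratio between the tumours was 0.64 over all genes tested. The stellate cell and fibroblast markers also differed between the tumours, at 5.52 CPM in tumour 1 and 813 CPM in tumour 2, and their part in these ratios was not tested.

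S phase genes listed as E2F targets were higher in tumour 2 than in tumour 1 throughout. Of 19 listed E2F target genes of S phase, 17 exceeded normal liver in both tumours, against 43.1% of all genes, and all 19 were over 2-fold higher in tumour 2 than in tumour 1, against 18.7% of all genes, with a median log2 ratio of 2.74, against a median of 0 over all genes. Mki67, a gene expressed in cycling cells, was at 26.8 CPM in tumour 1, 596 CPM in tumour 2 and 2.63 CPM in normal liver. None of the 19 was called by edgeR, against 2.23% of all genes called higher. An unadjusted p under 0.05 was reached by 11, all higher, against 12.5% of all genes, and DESeq2 called 13 higher and 0 lower, against 8.68% and 8.7%. The smallest p were those of 3 genes of the replicative helicase. Mcm6 was at 57.8 CPM in tumour 1, 260 CPM in tumour 2 and 1.42 CPM in normal liver (edgeR adjusted p = 0.0759). Gins2, with 77 and 388 counts in the tumours and 1 count in each normal table, had an edgeR adjusted p of 0.102. Mcm2 was at 30.1 CPM in tumour 1, 202 CPM in tumour 2 and 1.32 CPM in normal liver (edgeR adjusted p = 0.107). Genes of this list with few counts in normal liver, such as Gins2, passed the filter through the tumours alone and could only read higher. Mcm2, with 10 and 13 counts in the normal tables, also passed it through the tumours alone. The median log2 fold change of this list was 4.89, and that of all genes 0.19.

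**Figure D4:**
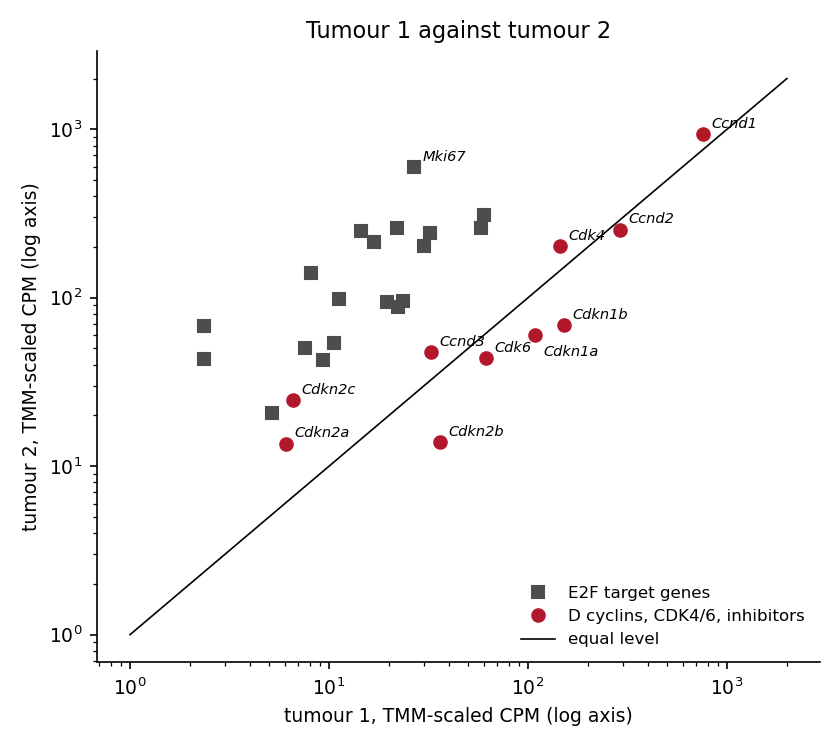
TMM-scaled CPM in tumour 1 and tumour 2 on log axes for the 10 genes (circles) and for 19 E2F target genes of S phase (squares), with a line of equal level. All 19 squares lie above the line by over 2-fold, Mki67 among them (26.8 CPM in tumour 1, 596 CPM in tumour 2), while the circles lie on both sides of it.

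Of 17 genes of the RB family, E2F factors and their partners, 9 were higher and 4 lower in both tumours, against 43.1% and 40.1% of all genes. None was called by edgeR, an unadjusted p under 0.05 was reached by 1 gene, which was higher (12.5% of all genes), and DESeq2 called 1 higher, Rbl1 (8.68% of all genes). Neither of these single genes of 17 exceeds the share over all genes. Rbl1, which encodes the RB relative p107, was at 16.2 and 62.6 CPM in the tumours against 2.52 CPM in normal liver (adjusted p = 0.136). E2f3 was at 36.3 and 37.7 CPM against 12.8 CPM (adjusted p = 0.205) and E2f1 at 7.41 and 14.5 CPM against 2.08 CPM (adjusted p = 0.228). Both encode activating E2F factors. On the log2 scale the median fold change of this list was 0.71.

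Among 14 other cyclin and kinase genes of G1 and S phase, 13 were tested, and 7 were higher and 2 lower in both tumours, against 43.1% and 40.1% of all genes. None was called by edgeR. Without adjustment 2 had a p under 0.05, both higher, against 12.5% of all genes, and DESeq2 called 3, all higher, against 8.68%. Among these, Cdk1 had 6 and 7 counts in the normal tables, and Ccna2, called by DESeq2 only, had 10 and 13. Both passed edgeR's filter through the tumours alone and had little room to read lower. Ccng1, a cyclin gene and p53 target, was at 569 and 295 CPM in the tumours against 33.2 CPM in normal liver (adjusted p = 0.0824). The mitotic kinase gene Cdk1 was at 18.2 and 179 CPM against 0.658 CPM (adjusted p = 0.121), and Mnat1, of the CDK-activating kinase, at 17.6 and 29.3 CPM against 5.59 CPM (adjusted p = 0.185). The median log2 fold change was 1.23.

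Of 12 other inhibitor and protein turnover genes, 7 were higher and 2 lower in both tumours (43.1% and 40.1% of all genes), with none called by edgeR. An unadjusted p under 0.05 was reached by 1 higher and 1 lower gene, against 12.5% and 15.5% of all genes. DESeq2 called 2 higher and 1 lower, against 8.68% and 8.7%. Of the higher ones, Cdkn3 had 0 (double heterozygous) and 1 (wild type) counts in normal liver and could only read higher. The lower one was Fbxo31, whose product helps to degrade cyclin D1 after DNA damage. It stood at 17.3 and 17.1 CPM in the tumours against 129 CPM in normal liver, with a log2 fold change of -2.91 (SE 0.52) and an edgeR adjusted p of 0.0516 (0.00303 to 0.120 over the alternatives). Cks1b, which helps SCF-SKP2 to degrade p27, was at 19.9 and 92.4 CPM against 2.63 CPM (adjusted p = 0.132). Cdkn2d, the gene of the fourth INK4 protein p19, had 14 and 45 counts in the tumours against 0 and 1 counts in the normal tables (adjusted p = 0.201). Cdkn2d passed the filter through the tumours alone. The median log2 fold change was 0.63.

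Of 28 known regulators of these genes' transcription, 19 were higher and 7 lower in both tumours, beside 43.1% and 40.1% of all genes. By edgeR 1 was called, higher, beside 2.23% of all genes. Without adjustment 6 had a p under 0.05 in the higher and 2 in the lower direction, beside 12.5% and 15.5%. The called gene was Id1, a helix-loop-helix inhibitor and target of BMP signalling whose product is known to repress Cdkn2a, which rose to 130 and 171 CPM in the tumours against 3.51 CPM in normal liver, a log2 fold change of 5.42 (SE 0.75) with an edgeR adjusted p of 0.0344. Klf4 and Klf6, zinc finger genes whose products can activate Cdkn1a, were at 53.7 and 59.1 CPM against 3.84 CPM in normal liver (edgeR adjusted p = 0.0527) and at 418 and 246 CPM against 16.1 CPM (edgeR adjusted p = 0.0562). Over the alternatives the adjusted p ran from 0.000131 to 0.0559 for Klf4 and from 3.60e-06 to 0.0623 for Klf6. DESeq2 called 6 regulators higher, beside 8.68% of all genes, and 1 lower, beside 8.7%. Of the higher ones, Foxm1 had 4 and 6 counts in the normal tables and little room to read lower. The lower one was Foxo1, a transcription factor gene whose product can activate Cdkn1b. The median log2 fold change was 0.95.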

How the data were processed

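Per the labels' protocols, total RNA was taken up in TRIZOL and libraries were built with Illumina TruSeq reagents. Each deposited table holds unnormalized counts for 1 library, by gene symbol. The submitters' processing notes name the build mm9 and FastQC, Trimmomatic, TopHat2 2.0.10, HTSeq and DESeq2, without role or order, and no source used here gives the strand setting. The 5 lines of each table that name no gene were left out of library sizes. They held 13.6% and 16.4% of all lines' counts outside genes in tumours 1 and 2, against 24.4% (double heterozygous) and 31.5% (wild type) in the normal tables, 45.6% and 42.3% not unique, against 51.5% and 30.7%, and at most 0.107% ambiguous.

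The 10 genes and all lists were chosen with earlier results of these data known. All 10 genes are named; of each list, called genes and, up to 3 in all, those with the smallest p. Myc, Trp53, Foxo1, Foxm1, Ccna2, Cdkn3, Oraov1, Bysl, Tspan31, Mcm7 and Tfdp1 were named after their values were seen. Both normal tables were averaged and rounded to 1 library, since their low counts were equal far more often than those of the tumours. A mean of 0.5 became 0. Tumours (n = 2) and this library were compared with edgeR 4.0.16 in R 4.3.3 (TMM, filterByExpr with a minimum count of 10, glmQLFit, glmQLFTest, Benjamini-Hochberg adjustment over all genes, threshold 0.05). The fit has 1 residual degree of freedom, from the tumours, and assumes that normal liver varies as they do. The SE is the absolute log2 fold change over the square root of F. The script was tested on simulated data. Alternatives were other scaling, no filter, DESeq2 1.42.0 and other uses of the normal tables. Log2 ratios between tumours used a prior count of 2; counting intervals are exact conditional binomial at 95%. Levels of different genes were compared per kilobase of merged exons (GENCODE M21, GRCm38), a build other than that of the counts.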

Additional observations from a re-analysis of the deposited data

How the results depend on the processing

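Ccnd1 and Ccnd2 were called under all 8 alternatives, and no fold change of the 10 genes reversed. The number of the 10 called was 2 as reported, with DESeq2 size factors, with upper quartile scaling and with either normal table alone. It was 4 without scaling, 6 without the filter, 6 with DESeq2 and 7 with both normal tables as separate libraries, all higher. Since those tables share counts, the spread between them is too small. Called genes over all genes were 1073 (322 higher, 751 lower) and came to 2286 without the filter, 3216 with DESeq2 and 6215 with both tables. Without scaling, 635 were higher and 472 lower, and the median log2 fold change of all genes was 1.56, against 0.19 as reported and 0.42 with upper quartile scaling. Pathway list genes called were 1 as reported and 4 with DESeq2 size factors, 2 with upper quartile scaling, 3 without scaling, 13 without the filter, 27 with DESeq2, 37 with both tables and 3 with the table labelled wild type alone. The cause of these shifts was not tested.

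Leaving out tumour 1 or 2 leaves no residual degree of freedom, so only log2 ratios with no test were made. They were 5.16 to 5.45 for Ccnd1, 4.38 to 4.58 for Ccnd2, 0.24 to 0.78 for Ccnd3, 2.39 to 2.88 for Cdk4, 1.18 to 1.68 for Cdk6, 3.62 to 4.48 for Cdkn1a, 0.83 to 1.96 for Cdkn1b and 1.17 to 3.05 for Cdkn2c. Those of Cdkn2b were 4.599 without tumour 1 and 5.97 without tumour 2, and those of Cdkn2a, which rest on a normal mean that rounds to 0 and on the prior count, 6.61 and 5.46. No paired analysis was possible because the normal tables carry no replicate numbers. The spread of normal liver could not be estimated from 1 sample, and counts of 4 or fewer in normal liver limit Cdkn2a and Cdkn2b.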
